A study of Mus musculus with 8 samples.

Results

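The homeobox genes Mixl1, Evx1, Gsc and Lhx1 were followed in cells sorted from gastrulating mouse embryos. Members were the probe sets whose platform annotation was exactly one of these 4 symbols, which gave 5 of the 45141 probe sets in the table: 1 each for Mixl1, Evx1 and Gsc, and 2 for Lhx1. All 5 passed a filter on low values, and all 4 genes were among the 11706 genes tested. The embryos, at embryonic day (E) 7.5 or 6.5, carried Mesp1-rtTA and the reporter Teto-H2B-GFP, so that nuclear GFP marked cells in which this Mesp1-driven system had been active. All 4 groups carried both transgenes: GFP+ cells at E7.5, GFP- cells at E7.5, GFP+ cells at E6.5 and GFP- cells at E6.5. A group had 2 arrays, each from a pool of 50 sorted living cells whose cDNA was amplified over 25 cycles, and the labels number them as biological replicates 1 and 2. The GFP- fraction was defined by the absence of GFP alone, so it could hold any cell type of the embryo, cells with Mesp1 RNA included.

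Homeobox genes encode transcription factors that bind DNA through a homeodomain. In the gastrula, epiblast cells enter the primitive streak under Nodal, Wnt and BMP signals, leave the epithelium and become mesoderm or endoderm. Mixl1 encodes a paired-like factor of the Mix family, known from the streak and from nascent mesoderm and endoderm as a target of Nodal signals. Evx1 encodes a relative of Drosophila even-skipped and is known from the posterior streak. Gsc encodes goosecoid, a repressor known from the anterior streak and its derivatives. Lhx1, also called Lim1, encodes a LIM-homeodomain factor required for head formation. Lhx1 and Gsc are also known from the anterior visceral endoderm, a tissue outside the embryo proper, and Lhx1 later from lateral and intermediate mesoderm.

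All 4 genes matched a RefSeq gene by Entrez identifier, and promoter sequence was at hand for 3 of them. The 250 bases before the RefSeq start of Evx1, Gsc and Lhx1 (GRCm38.p6, 5′ to 3′ on the gene's strand) are shown as a description of these members. Capitals mark every match, on either strand, to a searched motif.
Evx1, chr6:52313248-52313497, strand +: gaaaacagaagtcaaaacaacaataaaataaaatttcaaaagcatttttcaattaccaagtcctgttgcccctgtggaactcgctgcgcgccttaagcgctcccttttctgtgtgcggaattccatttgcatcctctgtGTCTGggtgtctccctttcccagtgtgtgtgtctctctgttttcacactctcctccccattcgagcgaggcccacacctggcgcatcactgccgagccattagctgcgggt
Gsc, chr12:104473237-104473486, strand -: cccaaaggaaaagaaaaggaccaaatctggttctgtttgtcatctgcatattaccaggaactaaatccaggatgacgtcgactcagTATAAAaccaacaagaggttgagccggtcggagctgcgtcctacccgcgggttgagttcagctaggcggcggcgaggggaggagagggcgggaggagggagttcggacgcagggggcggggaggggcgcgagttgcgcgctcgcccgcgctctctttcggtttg
Lhx1, chr11:84525535-84525784, strand -: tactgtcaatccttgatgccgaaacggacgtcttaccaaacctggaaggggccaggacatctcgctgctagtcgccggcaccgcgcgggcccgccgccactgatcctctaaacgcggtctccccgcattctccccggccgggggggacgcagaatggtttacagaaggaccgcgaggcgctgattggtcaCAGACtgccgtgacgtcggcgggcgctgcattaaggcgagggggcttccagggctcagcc
The motifs searched, on both strands, were the SMAD box CAGAC, the FOXH1 motif AATNCACA and the TATA box TATAAA. Also searched were the T-box core TNACACC, the motif CTTTGAT of TCF and LEF factors, the sequence TAATTA bound by many homeodomains and the sequence TAATCC bound by the homeodomain class of goosecoid. Evx1 held 1 SMAD box, read on the reverse strand 111 to 107 bases before the start, and Lhx1 held 1 on the forward strand, 60 to 56 bases before it. SMAD proteins carry Nodal and BMP signals to DNA, but a run this short was present in 42.2% of 32817 promoter windows of the same length. Gsc held 1 TATA box, 164 to 159 bases before the RefSeq start, a motif found in 12.4% of the windows. None of the 3 windows held the other motifs, found in 3.18% of all windows for FOXH1, 8.61% for the T-box core, 3.21% for TCF and LEF, 4.85% for many homeodomains and 6.25% for the goosecoid class. The share of G and C was 49.6% for Evx1, 59.2% for Gsc and 64.8% for Lhx1, against a median of 52.4% over all windows. These letters are a description, and binding was not measured.

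Values are log2 expression after RMA, a method that corrects background, normalizes arrays to a common distribution and summarises the probes of a probe set. Tests were limma's, with p-values adjusted by Benjamini-Hochberg across the 11706 genes, and a gene passed below an adjusted p of 0.05. Whether replicates came from separate litters is not stated, so p-values measure the spread between these arrays. Mesp1 checked the sort: it was at 9.75 and 10.03 in GFP+ cells, against 5.64 and 6.26 in GFP- cells, at E6.5 (difference 3.94, SE 0.33, limma adjusted p = 0.0209). At E7.5 it was at 8.75 and 8.65 in GFP+ cells, against 7.76 and 8.06 in GFP- cells, a smaller difference that did not pass (0.79, SE 0.33, limma adjusted p = 1.00). Array medians were 4.20 to 4.23 in replicate 1 and 4.54 to 4.59 in replicate 2, so changes within each number are given below. At E6.5, 9 of 11706 genes passed between the fractions (0.0769%), and 30 passed once replicate was blocked.

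At E6.5 all 4 homeobox genes were at higher levels in both GFP+ arrays than in both GFP- arrays. None of the 4 passed the test over all genes, where 0.0769% passed. Levels of this kind, higher in both GFP+ arrays, were found in 14.8% of the genes tested. The median difference of the 4 genes was 2.88 on the log2 scale, beside 0.01 over all genes. The 95% interval of the difference lay above 0 for Mixl1, Evx1 and Lhx1 and spanned 0 for Gsc, and 671 of 11706 genes (5.73%) had an interval that left out 0 on either side.

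Mixl1 was at 10.91 and 10.57 in GFP+ cells at E6.5 in replicates 1 and 2, against 4.50 and 7.90 in GFP- cells. The GFP+ arrays lay close together, and the GFP- arrays lay far apart. The difference was 4.54 (SE 1.09, 95% interval 1.99 to 7.09, limma adjusted p = 0.318), with 6.41 within replicate 1 and 2.67 within replicate 2. One GFP- array was close to the median of all deposited values (4.38), so the size of the difference is uncertain. It was 2.84 without GFP- E6.5 replicate 1 and 6.24 without GFP- E6.5 replicate 2.

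Evx1 was at 9.19 and 9.01 in GFP+ cells at E6.5, against 6.37 and 6.98 in GFP- cells. Both pairs of arrays lay close together beside the gap between the fractions. The difference was 2.42 (SE 0.46, 95% interval 1.35 to 3.50, 5.37-fold, limma adjusted p = 0.186), with 2.82 and 2.03 within the replicates. Of the 4 genes, Evx1 had the smallest SE and the lowest p at E6.5. It kept a difference of 2.12 to 2.73 without any 1 of the 8 arrays.

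Lhx1 was at 9.63 and 10.26 in GFP+ cells at E6.5, against 4.43 and 8.78 in GFP- cells, on the brighter of its probe sets. As for Mixl1, 1 GFP- array was near 4.38 and the other was well above it, so the size of the difference is uncertain. The difference was 3.34 (SE 1.21, 95% interval 0.51 to 6.18, limma adjusted p = 0.695), with 5.20 and 1.49 within the replicates. It was 1.17 without GFP- E6.5 replicate 1 and 5.52 without GFP- E6.5 replicate 2.

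The dimmer Lhx1 probe set read 8.79 and 9.44 in GFP+ cells at E6.5, against 3.73 and 7.72 in GFP- cells. Tested on its own among 18584 probe sets, it differed by 3.39 (SE 1.17, limma adjusted p = 0.657). Both probe sets were annotated to the same accession. Over the 8 arrays the brighter one exceeded the dimmer one by 0.70 to 1.86, and their values correlated at r = 0.97 (n = 8 arrays, which share probe chemistry and amplification). The split between the GFP- E6.5 arrays was therefore present on both.

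Gsc was at 6.86 and 6.41 in GFP+ cells at E6.5, against 4.89 and 6.31 in GFP- cells. The fractions did not overlap, but within replicate 2 they were nearly level. The difference was 1.03 (SE 0.59, 95% interval -0.35 to 2.42, 2.05-fold, limma adjusted p = 1.00), with 1.97 and 0.10 within the replicates. It was 0.32 without GFP- E6.5 replicate 1 and 1.74 without GFP- E6.5 replicate 2.

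**Figure D1:**
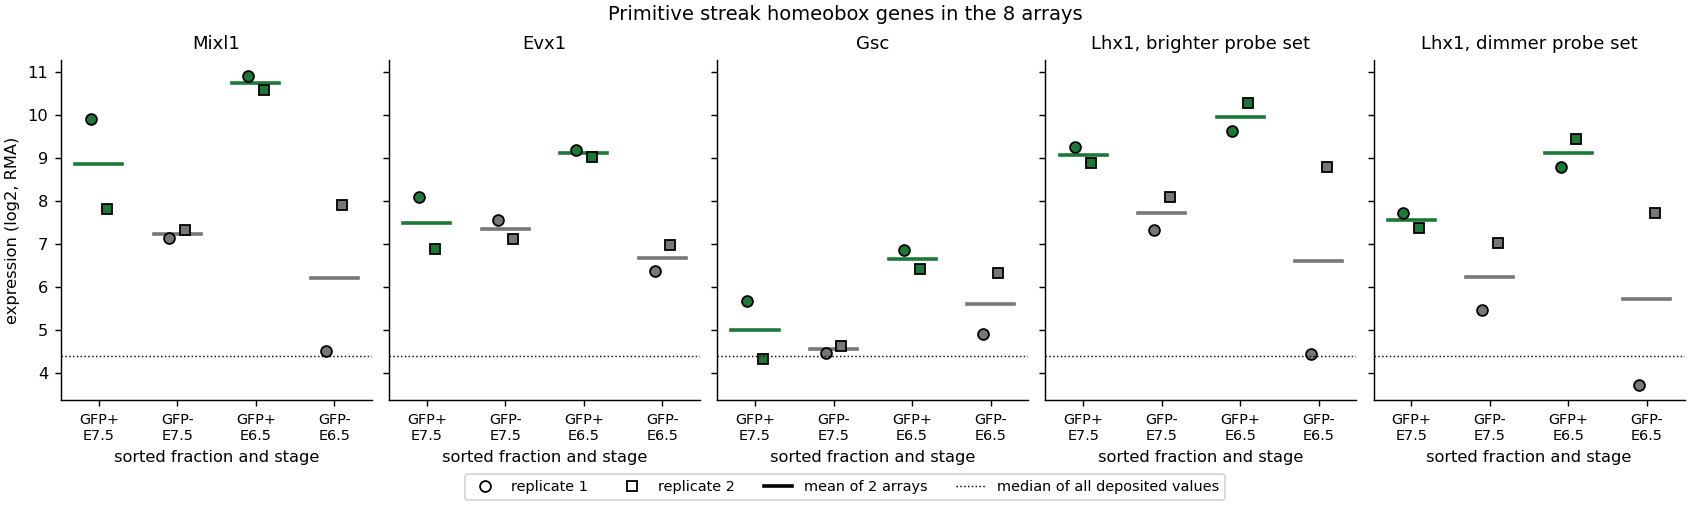
Log2 expression (y axis) of the 5 probe sets of Mixl1, Evx1, Gsc and Lhx1 in the 4 groups of 2 arrays (x axis), with circles for replicate 1, squares for replicate 2, bars for group means and a dotted line at the median of all deposited values (4.38). GFP+ cells at E6.5 have the highest mean on every panel, and the GFP- arrays at E6.5 lie far apart for Mixl1 (4.50 and 7.90) and Lhx1 (4.43 and 8.78).

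The 2 GFP- arrays at E6.5 differed strongly in some of these genes and in other genes of the anterior streak and visceral endoderm. Replicate 2 exceeded replicate 1 by 4.35 for Lhx1, 3.40 for Mixl1, 1.42 for Gsc and 0.61 for Evx1. The median absolute difference between these arrays over all genes was 0.48. A difference at least as large was found in 0.0256% of genes for Lhx1, 0.103% for Mixl1, 7.29% for Gsc and 39.5% for Evx1. In GFP+ cells at E6.5 the replicates differed by at most 0.63 for any of the 4 genes.

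Markers of visceral endoderm, a layer that covers the embryo at these stages, moved with the GFP- arrays. All 12 measured markers were higher in GFP- E6.5 replicate 2 than in replicate 1 by more than 1. Their median excess was 1.78, beside 0.23 over all genes. Their mean level was 4.28 and 4.74 in GFP+ cells at E6.5, against 6.09 and 7.88 in GFP- cells. Among them were Spink1, a secreted protease inhibitor (3.47 and 3.33 in GFP+ cells, against 8.16 and 10.46 in GFP- cells), and the apolipoprotein gene Apob (3.78 and 4.28 in GFP+ cells, against 6.14 and 8.62 in GFP- cells). Of the 12 markers, 6 and 4 were at or below 4.38 in the GFP+ arrays, against 1 and 0 in the GFP- arrays. Cer1, a secreted Nodal, BMP and Wnt antagonist of the anterior visceral endoderm, was at 4.56 and 3.996 in GFP+ cells at E6.5, against 5.49 and 9.78 in GFP- cells. Hhex, a homeobox gene of the same tissue, was at 4.22 and 4.71 in GFP+ cells, against 4.65 and 7.54 in GFP- cells. The part of visceral endoderm in the spread of Lhx1, Gsc and Mixl1 among GFP- cells was not tested. In bulk samples of this kind, fewer cells of a type and less RNA per cell cannot be told apart. In the GFP+ E6.5 arrays, where Lhx1 was highest, Cer1 was lower than in any other array. Gata6, a factor of heart mesoderm and of endoderm, visceral endoderm included, was higher there than in any other array (9.86 and 9.83). The source of Lhx1 in these arrays was not tested. Markers of extraembryonic ectoderm also moved with these arrays, and their part was not tested either. Their mean was 4.63 and 4.88 in GFP+ cells at E6.5, against 5.35 and 6.01 in GFP- cells. Of the 14, 6 were higher by more than 1 in GFP- replicate 2 than in replicate 1. The median excess of the 14 was 0.74, beside 0.23 over all genes. Rhox5, a homeobox gene of extraembryonic tissue, was at 4.71 and 5.02 in GFP+ cells, against 8.42 and 9.98 in GFP- cells. Epiblast markers did not differ between the GFP- arrays in this way: their mean was 9.07 and 9.26 in the GFP- E6.5 arrays.

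**Figure D2:**
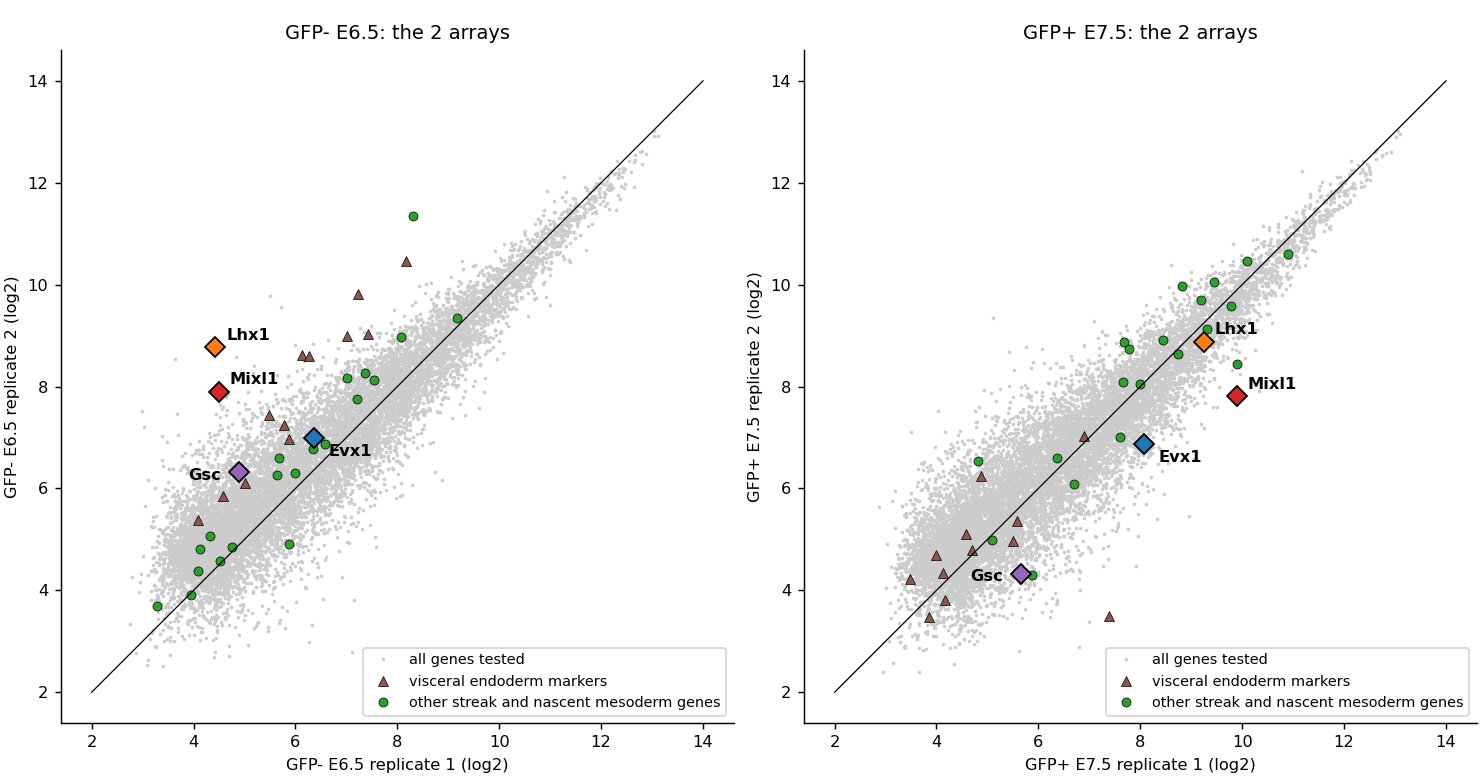
Replicate 2 (y axis) against replicate 1 (x axis), log2, for GFP- cells at E6.5 (left) and GFP+ cells at E7.5 (right). Each grey point is 1 of 11706 genes, diamonds are the 4 homeobox genes, triangles are visceral endoderm markers and circles are other streak and nascent mesoderm genes. On the left Lhx1 and Mixl1 lie far above the line of equality (by 4.35 and 3.40) with the 12 triangles also above it, and on the right Mixl1, Gsc and Evx1 lie below it (by 2.08, 1.33 and 1.20).

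At E7.5 the fractions were closer together. The median difference of the 4 genes was 0.90, beside -0.01 over all genes. Mixl1 and Lhx1 were higher in both GFP+ arrays than in both GFP- arrays, as were 10.3% of genes tested, and Evx1 and Gsc overlapped between fractions. None of the 4 passed, nor did any other gene: limma called 0 of 11706 (0%), also when replicate was blocked, and 282 (2.41%) had an unadjusted p under 0.05. All 4 intervals included 0. Of 20 other streak and nascent mesoderm genes, 16 had a difference above 0 at E7.5 (median 0.57).

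Mixl1 was at 9.89 and 7.81 in GFP+ cells at E7.5, against 7.13 and 7.33 in GFP- cells. Most of the gap came from GFP+ replicate 1. The difference was 1.62 (SE 1.09, 95% interval -0.93 to 4.18, limma adjusted p = 1.00), with 2.76 and 0.49 within the replicates and 0.59 without GFP+ E7.5 replicate 1. Lhx1 was at 9.24 and 8.88 in GFP+ cells at E7.5, against 7.33 and 8.10 in GFP- cells. Here the GFP+ arrays lay above the GFP- arrays in both replicates, by 1.91 and 0.79. The difference was 1.35 (SE 1.21, 95% interval -1.49 to 4.19, limma adjusted p = 1.00).

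Evx1 was at 8.08 and 6.88 in GFP+ cells at E7.5, against 7.56 and 7.11 in GFP- cells. The sign of its difference turned with the replicate, 0.52 in one and -0.23 in the other. The mean difference was 0.14 (SE 0.46, 95% interval -0.93 to 1.22), and it was -0.46 without GFP+ E7.5 replicate 1 and -0.08 without GFP- E7.5 replicate 2. Gsc was at 5.66 and 4.33 in GFP+ cells at E7.5, against 4.47 and 4.62 in GFP- cells. Except for GFP+ replicate 1, these values were close to 4.38, and no measure of background per probe set was used here. The mean difference of Gsc was 0.45 (SE 0.59, 95% interval -0.93 to 1.84), and it was -0.22 without GFP+ E7.5 replicate 1.

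Visceral endoderm markers averaged 4.93 and 4.80 in GFP+ cells at E7.5, against 4.71 and 6.07 in GFP- cells. Lhx1, on both probe sets, was higher in GFP- replicate 2 than in replicate 1 at E7.5. The gap was 0.77 on the brighter one and 1.54 on the dimmer one. A gap of at least 0.77 between these arrays was found in 34.0% of genes. Extraembryonic ectoderm markers ran the other way, with means of 5.15 and 5.23 in GFP+ cells, against 6.56 and 5.63 in GFP- cells. In GFP- cells 7 of 14 were lower by more than 1 in replicate 2. Their median change from replicate 1 to replicate 2 was -0.72, beside 0.20 over all genes. The part of either set of markers in the spread of Lhx1 was not tested.

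**Figure D3:**
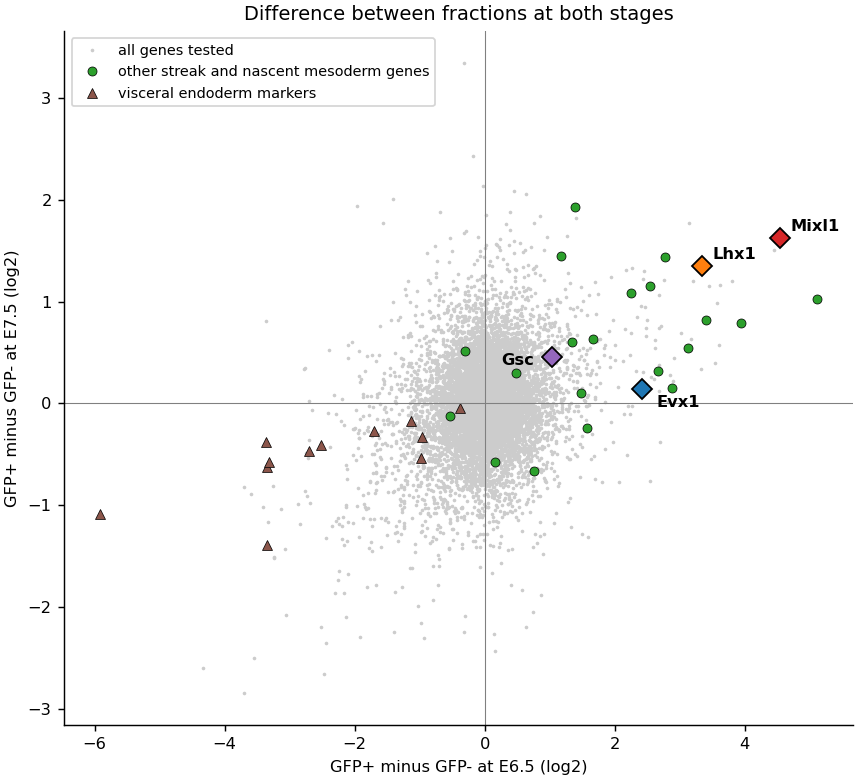
Difference between fractions (GFP+ minus GFP-, log2) at E7.5 (y axis) against that at E6.5 (x axis) for 11706 genes (grey), with the 4 homeobox genes as diamonds, other streak and nascent mesoderm genes as circles and visceral endoderm markers as triangles. Mixl1 (4.54 and 1.62 at E6.5 and E7.5) and Lhx1 (3.34 and 1.35) lie to the upper right, Evx1 (2.42 and 0.14) lies near the horizontal line and Gsc (1.03 and 0.45) lies nearest the centre of the 4.

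Within the GFP+ fraction, all 4 genes were at lower levels in both E7.5 arrays than in both E6.5 arrays, a pattern shown by 15.2% of the genes tested. This comparison shares its GFP+ E6.5 arrays with the fraction comparison at E6.5. The median difference between stages was -1.63, beside -0.03 over all genes. None of the 4 passed, and 0.0256% of all genes did (3 of 11706, none of which fell). Markers of other cell types also differed between these arrays. Of 13 epiblast markers 12 had a difference below 0 (median -1.23), with means of 6.80 and 6.33 at E7.5, against 7.41 and 7.87 at E6.5. Of 11 markers of intermediate and lateral mesoderm 9 had a difference above 0 (median 0.80), with means of 7.17 and 6.79 at E7.5, against 4.80 and 5.80 at E6.5. In that list 1 gene rose, Foxc2, a forkhead factor of mesoderm, named after its values were seen (5.45, limma adjusted p = 0.0409), with E6.5 values below 4.38 and so an uncertain size. The part of these markers in the levels of the 4 homeobox genes was not tested.

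Evx1 was at 8.08 and 6.88 in GFP+ cells at E7.5, against 9.19 and 9.01 at E6.5. The difference was -1.62 (SE 0.46, 95% interval -2.70 to -0.55, limma adjusted p = 0.770), with -1.11 and -2.13 within the replicates. Gsc was at 5.66 and 4.33 in GFP+ cells at E7.5, against 6.86 and 6.41 at E6.5. Its difference was -1.64 (SE 0.59, 95% interval -3.02 to -0.25, limma adjusted p = 1.00), with -1.20 and -2.08 within the replicates. Intervals for Evx1 and Gsc lay below 0, those of Mixl1 and Lhx1 spanned it, and 451 of 11706 genes (3.85%) had an interval that left out 0 on either side.

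Mixl1 was at 9.89 and 7.81 in GFP+ cells at E7.5, against 10.91 and 10.57 at E6.5. Its difference was -1.89 (SE 1.09, 95% interval -4.44 to 0.66), with -1.02 and -2.76 within the replicates, and it was -0.85 without GFP+ E7.5 replicate 2. Lhx1 showed the smallest difference, with 9.24 and 8.88 at E7.5, against 9.63 and 10.26 at E6.5. It came to -0.88 (SE 1.21, 95% interval -3.72 to 1.95) on the brighter probe set and to -1.57 (SE 1.17) on the dimmer one.

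Within the GFP- fraction the genes did not move alike between the stages. Both E7.5 arrays were above both E6.5 arrays for Evx1 (13.1% of genes tested did so) and below them for Gsc (13.6%), and Mixl1 and Lhx1 overlapped. None of the 4 passed, where 0.094% of genes did (11 of 11706). Evx1 was at 7.56 and 7.11 in GFP- cells at E7.5, against 6.37 and 6.98 at E6.5, a difference of 0.66 (SE 0.46, 95% interval -0.42 to 1.73). Most of it lay in replicate 1, with 1.18 and 0.13 within the replicates. Gsc was at 4.47 and 4.62 in GFP- cells at E7.5, against 4.89 and 6.31 at E6.5. Its difference was -1.06 (SE 0.59, 95% interval -2.44 to 0.33), with -0.42 and -1.69 within the replicates.

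Mixl1 was at 7.13 and 7.33 in GFP- cells at E7.5, against 4.50 and 7.90 at E6.5. Lhx1 was at 7.33 and 8.10 in GFP- cells at E7.5, against 4.43 and 8.78 at E6.5. For both genes the E7.5 values fell between the E6.5 values. The differences were 1.03 (SE 1.09) for Mixl1 and 1.11 (SE 1.21) for Lhx1, and without GFP- E6.5 replicate 1 they turned to -0.67 and -1.06. Marker lists also differed between these arrays, beside a median of -0.01 over all genes. Differences were below 0 for 12 of 12 visceral endoderm markers (median -1.59) and 13 of 13 epiblast markers (-1.16). They were above 0 for 11 of 11 markers of intermediate and lateral mesoderm (1.97) and 15 of 20 other streak and nascent mesoderm genes (1.26). Extraembryonic ectoderm markers were mixed (8 of 14 above 0, median 0.42). The part of these markers was not tested.

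**Figure D4:**
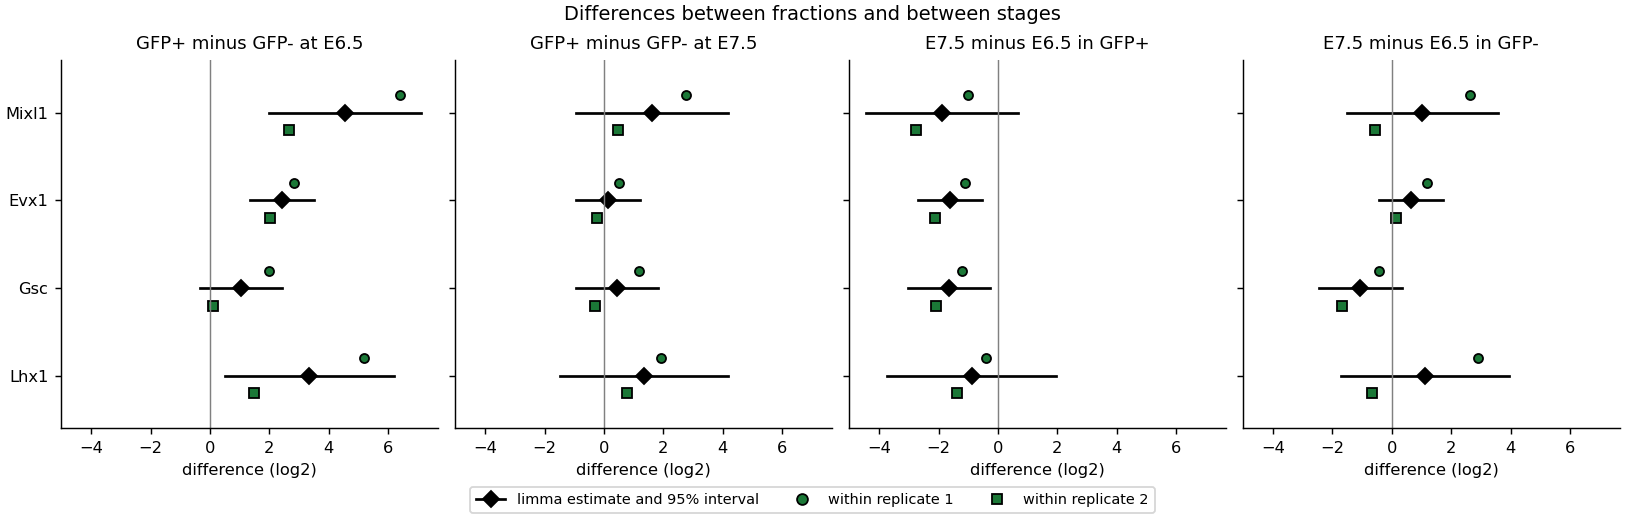
Differences (log2, x axis) between GFP+ and GFP- cells at each stage and between E7.5 and E6.5 in each fraction for the 4 genes (y axis). Diamonds with lines are limma estimates with 95% intervals, circles are differences within replicate 1 and squares those within replicate 2. All E6.5 fraction differences lie above 0 and all stage differences in GFP+ cells lie below it, whereas in GFP- cells the replicates disagree in sign for Mixl1 (2.63 and -0.58) and Lhx1 (2.90 and -0.68).

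The interaction, the fraction difference at E7.5 minus that at E6.5, was below 0 for all 4 genes, as it was for 52.2% of the genes tested, and none passed. The interaction was -2.92 (SE 1.54) for Mixl1, -2.28 (SE 0.65) for Evx1, -1.99 (SE 1.71) for Lhx1 and -0.58 (SE 0.83) for Gsc (limma adjusted p = 1.00 for each). Over all genes limma called 0 interactions (0%), also when replicate was blocked, and 317 (2.71%) had an unadjusted p under 0.05. The interval excluded 0 for Evx1 alone of the 4 (-3.80 to -0.76), and its values within the replicates were -2.30 and -2.26. Lower levels in both GFP+ arrays and higher levels in both GFP- arrays at E7.5, as in Evx1, were found in 1.52% of genes. Without GFP- E6.5 replicate 1 the interaction of Lhx1 was 0.18 and that of Gsc 0.13, and without GFP+ E7.5 replicate 2 that of Gsc was 0.08.

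From the highest to the lowest mean, the groups ran GFP+ E6.5, GFP+ E7.5, GFP- E7.5 and GFP- E6.5 for Mixl1, Evx1 and Lhx1. Mesp1 had the same order, with means that are not comparable in level between probe sets. For Gsc the order was GFP+ E6.5, GFP- E6.5, GFP+ E7.5 and GFP- E7.5. Neighbours in these orders overlapped between arrays for Mixl1 and Lhx1 in the GFP- stages, for Evx1 between the fractions at E7.5, and for Gsc everywhere but between the fractions at E6.5.

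The array values of Gsc within a group had SDs of 0.94 (GFP+ E7.5), 0.11 (GFP- E7.5), 0.32 (GFP+ E6.5) and 1.01 (GFP- E6.5), with n = 2 each. Those of Mixl1 had SDs of 1.47, 0.14, 0.24 and 2.40 in the same groups. In that order of groups they were 0.85, 0.31, 0.13 and 0.43 for Evx1 and 0.25, 0.54, 0.45 and 3.08 for Lhx1. The GFP+ E7.5 arrays thus differed in Mixl1, Evx1 and Gsc together, with replicate 1 higher by 2.08, 1.20 and 1.33, and not by as much in Lhx1 (0.36). The median absolute difference of these arrays over all genes was 0.47, and a gap at least as large was found in 1.44% of genes for Mixl1, 11.6% for Evx1, 8.47% for Gsc and 60.7% for Lhx1. The arrays also stood apart in other markers, whose part was not tested. Epiblast markers were lower in replicate 2 for 11 of 13, with a median change of -0.29, beside 0.13 over all genes. Of 11 markers of intermediate and lateral mesoderm, 4 were lower there by more than 1 and 2 were higher by more than 1.

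The genes resembled each other over the 8 arrays to different degrees. Pearson's r was 0.93 between Mixl1 and Lhx1, 0.91 between Mixl1 and Evx1, 0.73 between Evx1 and Lhx1, 0.71 for Gsc with Mixl1 and with Evx1, and 0.56 between Gsc and Lhx1. These are descriptions over n = 8 arrays that share groups and replicate offsets. Of 11705 other genes, Lhx1 ranked 19th and Evx1 25th by r with Mixl1, while Gsc ranked 337th.

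The genes tested whose profile was most like Mixl1 were Wars2 (r = 0.98), Pcdh7 (0.96) and Carnmt1 (0.96). Pcdh7 encodes a protocadherin, a cell adhesion protein. Most like Lhx1 were Gata4 (0.97), Gata6 (0.97) and Mmp14 (0.97). Gata4 and Gata6 encode zinc finger factors of heart mesoderm and of endoderm, visceral endoderm included. Gata6 was at 9.86 and 9.83 in GFP+ cells at E6.5, against 4.64 and 7.80 in GFP- cells, with the same split of the GFP- arrays as Lhx1. Most like Evx1 were Apbb3 (0.95), Cep44 (0.95) and Smad1 (0.95), the last of which encodes a mediator of BMP signals. Most like Gsc were Hes1 (0.96), a Notch target, Rragc (0.95) and Flt1 (0.95), which encodes a VEGF receptor.

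Other genes of the streak and nascent mesoderm gave the setting for these values. Of 23 listed, 20 were tested at E6.5, and 4 rose in GFP+ cells while 0 fell: Aplnr (5.11), Mesp1 (3.94), Sp5 (3.40) and Snai1 (3.13), where 0.0769% of all genes passed. The Mesp1 system also drove the reporter used for the sort. Both GFP- values of Aplnr (3.29 and 3.69) and 1 of Sp5 (4.33) lay below 4.38, so these sizes are uncertain. Aplnr encodes the apelin receptor, Sp5 a Wnt-responsive factor and Snai1 a repressor of epithelial genes. Fgf3, a signalling factor of the streak, was at 7.37 and 9.18 in GFP+ cells, against 5.87 and 4.91 in GFP- cells (difference 2.88, SE 0.64, limma adjusted p = 0.255). Both GFP+ arrays lay above both GFP- arrays for 16 of the 20, as for 14.8% of all genes, and the median difference was 1.62. Of these 20 genes, 18 were higher in GFP- E6.5 replicate 2 than in replicate 1, with a median of 0.50, beside 0.23 over all genes. By more than 1, 2 of the 20 were higher and 0 lower. This list was drawn up with earlier results of these data known and is not independent evidence.

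Signals that act on streak genes were measured as RNA of their ligands, receptors and mediators. Of 28 listed, 23 were tested at E6.5 and 0 passed, and the median difference was 0.08. The largest differences were in Lefty2, a Nodal antagonist of mesoderm (2.44, SE 0.68), Smad1 (2.41, SE 0.53), Wnt3, a streak-inducing ligand (2.24, SE 0.53), Bmp4 (-2.03, SE 0.59) and Lef1, a nuclear partner of beta-catenin (1.34, SE 0.55). Wnt3 was at 6.69 and 6.74 in GFP+ cells at E6.5, against 4.12 and 4.82 in GFP- cells. The value of 4.12 lay below 4.38, so the size of this difference is uncertain too. Bmp4, a ligand made by extraembryonic tissue at this stage, was at 3.97 and 4.16 in GFP+ cells, against 5.50 and 6.69 in GFP- cells. Its GFP+ values lay below 4.38, so the size of its difference is uncertain.

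Listed genes of the anterior streak, node and definitive endoderm, the usual company of Gsc and Lhx1, did not follow them as a group at E6.5. Of 21 listed, 16 were tested at E6.5, 0 passed, and 5 had a difference above 0, with a median of -0.57. The list includes Cer1 and Hhex, which are also genes of the anterior visceral endoderm, so it does not tell that tissue from the anterior streak. Of the 16, 6 and 4 were at or below 4.38 in the GFP+ arrays, and 3 and 2 in the GFP- arrays. Frzb, a secreted Wnt antagonist, was at 9.82 and 9.54 in GFP+ cells, against 4.50 and 5.94 in GFP- cells (difference 4.46, SE 0.53, limma adjusted p = 0.0572). Gata6 also had a positive difference (3.63, SE 0.89), whereas Cer1 (-3.36, SE 1.20), Trh (-3.33, SE 0.61), which encodes thyrotropin-releasing hormone, and Fzd8, a Wnt receptor (-1.84, SE 0.66), had negative ones. The GFP+ values of Fzd8 (3.81 and 3.72) and 1 of Cer1 (3.996) lay below 4.38, so these sizes are uncertain. At E7.5 Cer1 was at 9.67 and 9.86 in GFP+ cells, against 9.43 and 8.48 in GFP- cells.

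Cofactors through which LIM-homeodomain proteins act were close between the fractions at E6.5. Of 10 listed, 9 were tested and 0 passed at E6.5, with a median difference of -0.05. The largest were in Rlim, a ubiquitin ligase that acts on the cofactor Ldb1 (0.75, SE 0.32), Ldb2 (-0.64, SE 0.59), Lmo1 (0.61, SE 0.43), Ssbp2 (-0.25, SE 0.39) and Lmo4 (0.23, SE 0.43). Between the stages in GFP- cells 0 passed either, and Lmo2, a LIM-only protein gene named after its values were seen, was at 6.46 and 6.17 at E7.5, against 3.01 and 4.68 at E6.5 (difference 2.47, SE 0.63, limma adjusted p = 0.361), with 1 value below 4.38. Ldb1, the main partner of Lhx1, chosen after its values were seen, was at 10.39 and 10.83 in GFP+ cells at E6.5, against 10.49 and 11.04 in GFP- cells.

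Most paralogues and relatives of the 4 genes were not higher in both GFP+ arrays at E6.5, but many had low values. Of 26 listed, 18 were tested and 0 passed at E6.5, where 0.0769% of all genes did. Of the 18, 8 and 4 were at or below 4.38 in the GFP+ E6.5 arrays, and 8 and 5 in the GFP- ones. A difference in such genes could be missed. Only 1 lay higher in both GFP+ arrays, as 14.8% of all genes did. It was Otx1 (5.66 and 5.38 in GFP+ cells, against 3.54 and 3.08 in GFP- cells, difference 2.21, SE 0.34, limma adjusted p = 0.120). Its GFP- values lay below 4.38, so the size is uncertain. The closest paralogues were chosen after their values were seen. Lhx5 was at 4.29 and 4.94 in GFP+ cells, against 4.14 and 5.001 in GFP- cells, and Evx2 was at 5.82 and 5.65 in GFP+ cells, against 6.34 and 5.60 in GFP- cells. Neither separated the fractions, and the Lhx5 values of 4.29 and 4.14 lay below 4.38.

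Among other homeobox genes of the gastrula, 23 of 31 listed were tested, and 2 rose in GFP+ cells at E6.5 while 0 fell: Meis2 (3.61, SE 0.36, limma adjusted p = 0.0312) and Hoxb1 (3.33, SE 0.32, limma adjusted p = 0.0312). Over all genes 0.0769% passed. Meis2 encodes a cofactor of Hox proteins, and Hoxb1 an anterior Hox protein. Irx5 (2.44, SE 0.50) and Cdx1 (1.85, SE 0.36) did not pass, nor did Hhex (-1.63, SE 0.91). In GFP- cells Meis2 (4.33 and 3.87), Hoxb1 (3.24 and 3.80), Irx5 (4.22 and 3.89) and Cdx1 (3.44 and 3.33) lay below 4.38, so the sizes of these differences are uncertain.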

How the data were processed

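RNA of 8 sorted samples was measured on Affymetrix mouse 430 PM arrays, and the authors summarised each probe set as a log2 value with RMA, per the submitters' processing notes. RMA's version and the build are not given in the sources used here. Precision is limited by the number of arrays. Sorted values differed by at most 0.0399 on average between arrays of 1 replicate number and by at least 0.196 between numbers, so each number looks as if normalized separately, which no label states.

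Names came from probe sets with exactly 1 symbol (28898, covering 17097 genes). A probe set was kept with at least 2 of 8 arrays above the median of all deposited values (4.38), and a gene was represented by its kept probe set of highest mean. limma 3.58.1 in R 4.3.3 (lmFit, eBayes) was fitted to the 8 arrays together, 1 mean for each group, without a block (4 residual and 3.21 prior degrees of freedom). It was also run on simulated data. Those values were drawn independently for each array, so that run does not bear on the offset between replicate numbers. All tests were two-sided.

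Replicate numbers are treated as pairs in the differences within replicates and in the replicate block, but not in the main tests. The SEs, intervals and adjusted p-values of the main tests therefore include the offset between the numbers. The pairing rests on the design text, which says that all groups were repeated in each of 2 biological samples. Same-numbered arrays deviated together from their group means in each of 6 pairings of groups, with r of 0.401 to 0.532 across genes, which are not independent. Alternatives were another filter or none, all probe sets, a replicate block, fewer arrays, other normalizations and leaving out each array. The genes named were the 4 members, up to 5 genes of each list with the largest difference at E6.5, Mesp1, and 3 genes with the highest r for each member. Ldb1, Lhx5, Evx2, Lmo2 and Foxc2 fall outside this rule and were named after their values were seen. Members and lists were chosen with earlier results of these data known. Promoter windows came from RefSeq (GRCm38.p6).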

Additional observations from a re-analysis of the deposited data

Results flagged for a closer look

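The values of Evx1 were arranged in opposite ways between the stages in the 2 fractions, and neither stage difference passed. Both GFP+ arrays were lower at E7.5 (8.08 and 6.88) than both at E6.5 (9.19 and 9.01), and both GFP- arrays were higher at E7.5 (7.56 and 7.11) than both at E6.5 (6.37 and 6.98). The stage difference in GFP- cells was 0.66 (SE 0.46), with 1.18 and 0.13 within the replicates. The same arrangement was found in 178 of 11706 genes tested (1.52%). The difference between the fractions in their change with stage was -2.28 (SE 0.65), the same sign in both replicates, and did not pass (limma unadjusted p = 0.00917, adjusted p = 1.00, and 0.637 with the replicate block).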

How the results depend on the processing

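None of the 20 differences of the 4 genes passed under any alternative run. The lowest limma adjusted p was 0.0587, for Lhx1 at E6.5 without GFP- E6.5 replicate 2, and 0.124 among those that kept all 8 arrays, for Evx1 at E6.5 with the replicate block. Signs turned only on leaving out 1 array. By that step the E7.5 minus E6.5 difference in GFP- cells ran from -0.67 to 2.73 for Mixl1 and from -1.06 to 3.28 for Lhx1, the fraction difference at E7.5 from -0.46 to 0.74 for Evx1 and from -0.22 to 1.12 for Gsc, and the interaction from -1.29 to 0.13 for Gsc and from -4.17 to 0.18 for Lhx1. Pairing by the replicate block changed no call of the 4 genes and gave 30 genes for the fractions at E6.5 (9 without it) and 39 for the stages in GFP- cells (11 without it). For the fractions at E6.5 the count was 4 with every probe set tested, 0 with only the 4 arrays of the comparison, 16 after quantile normalization over 8 arrays, 19 with each array centred on its median, and 0 to 1 without any 1 array. For the stages in GFP+ cells (3) it was 0 with no filter or only 4 arrays, 8 with median centring, and 0 to 3 without any 1 array. For the stages in GFP- cells it was 19 with the mean of all probe sets, 4 with only 4 arrays, 26 after quantile normalization, 30 with median centring, and 3 to 10 without any 1 array. The causes were not tested. A group left with 1 array was assumed to vary like the others.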

Other observations

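In GFP- cells, 3 of 23 other homeobox genes of the gastrula rose between the stages and 0 fell, where 0.094% of all genes passed. Hoxb1 was at 9.58 and 9.69 in GFP- cells at E7.5, against 3.24 and 3.80 at E6.5 (difference 6.11, limma adjusted p = 0.00116). Cdx1, a caudal-type gene, was at 8.30 and 8.68 at E7.5, against 3.44 and 3.33 at E6.5 (5.10, limma adjusted p = 0.00451), and Meis2 was at 7.78 and 8.51 at E7.5, against 4.33 and 3.87 at E6.5 (4.05, limma adjusted p = 0.0160). Their E6.5 values lay below 4.38, so the sizes are uncertain. In these arrays Mixl1, Evx1 and Lhx1 had differences of 1.03, 0.66 and 1.11, Gsc had one of -1.06, and none of the 4 passed. Without GFP- E6.5 replicate 1 the differences turned to -0.67 for Mixl1 and -1.06 for Lhx1.

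Cer1 in GFP+ cells was at 9.67 and 9.86 at E7.5, against 4.56 and 3.996 at E6.5. The difference of 5.49 (SE 1.20) did not pass (limma adjusted p = 0.483). Of its E6.5 values, 3.996 lay below 4.38 and 4.56 near it, so the size is uncertain. Lhx1 was at 9.24 and 8.88 at E7.5, against 9.63 and 10.26 at E6.5. Visceral endoderm markers in the same arrays averaged 4.93 and 4.80 at E7.5, against 4.28 and 4.74 at E6.5.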
